A study of Mus musculus with 4 samples.

Results

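The ErbB receptors and their EGF-like ligands were followed across 4 mouse oral cancer cell lines by RNA sequencing. The 10 genes were taken by name from an expression table of 34721 gene entries, with no threshold on their levels. They were the receptors Egfr, Erbb2 and Erbb3, the EGFR ligands Areg, Ereg, Hbegf, Tgfa, Epgn and Btc, and the neuregulin Nrg1. All 10 reached 1 FPKM in at least 1 line, as did 14165 entries of the table. FPKM is a fragment count scaled to transcript length and to library size, so it can be set side by side between genes.

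The lines came from male C57BL/6 mice, 6 to 8 weeks old, whose buccal mucosa was painted by cotton swab with the carcinogen DMBA (7,12-dimethylbenzanthracene) until an oral tumor appeared. AOC3 was derived from the primary oral tumor and AOC3-LN from the lymph node metastasis of mouse 3, treated for 28 weeks. AOC11 and AOC11-LN were the primary and lymph node lines of mouse 11, treated for 31 weeks. All 4 had been passed through the flank of another C57BL/6 mouse, depleted of fibroblasts with a magnetic separation kit, and grown in DMEM/F12 with 10% serum. With 1 library per line, no replicate stood behind the difference of any 2 lines. Where the mice were compared, the 2 lines of each mouse stood in for replicates, and p-values describe the spread between these 4 lines only, not between mice.

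The ErbB receptors are membrane tyrosine kinases that pair up when a ligand binds. EGFR binds EGF, amphiregulin, transforming growth factor alpha, epigen, epiregulin, betacellulin and heparin-binding EGF. ErbB3 binds neuregulins but has little kinase activity of its own, and ErbB2 has no known soluble ligand and serves as the partner of the others. The ligands are made as membrane-anchored precursors that metalloproteases release, and the receptors signal through Ras-ERK and PI3K, with induced phosphatases and Sprouty proteins as brakes. In stratified oral epithelium this system drives keratinocyte growth and migration, and EGFR is often raised in squamous cell carcinoma of the head and neck.

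The genes of 4 of the ligands lie close together on chromosome 5, and their neighbourhood is described with the results on lymph node lines. Promoter windows from 250 bases before to 50 bases after the start site were present in the RefSeq table (GRCm38.p6) for 6 of the 10 genes. Among these were 3 of the 4 clustered ligand genes, which are shown because these genes lie together and were each higher in AOC3-LN than in AOC3. The windows are chr5:91027267-91027566 on the plus strand for Epgn, chr5:91139349-91139648 on the plus strand for Areg and chr5:91402945-91403244 on the minus strand for Btc, each written 5′ to 3′. Capitals mark matches on either strand to the cyclic AMP response element TGACGTCA, the AP-1 motif TGANTCA, the TATA box TATAAA or the GC box GGGCGG.
Epgn: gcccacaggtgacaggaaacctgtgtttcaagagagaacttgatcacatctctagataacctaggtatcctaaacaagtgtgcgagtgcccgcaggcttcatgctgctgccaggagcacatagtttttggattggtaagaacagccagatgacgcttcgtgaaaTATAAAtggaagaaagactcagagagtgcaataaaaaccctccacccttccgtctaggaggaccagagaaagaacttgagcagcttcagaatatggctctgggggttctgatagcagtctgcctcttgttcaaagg
Areg: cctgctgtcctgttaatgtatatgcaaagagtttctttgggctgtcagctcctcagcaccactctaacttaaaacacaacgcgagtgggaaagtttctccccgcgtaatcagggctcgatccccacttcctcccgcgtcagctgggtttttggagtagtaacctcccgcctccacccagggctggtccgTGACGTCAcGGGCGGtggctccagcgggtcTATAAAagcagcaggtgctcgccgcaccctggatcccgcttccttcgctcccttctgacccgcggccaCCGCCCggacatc
Btc: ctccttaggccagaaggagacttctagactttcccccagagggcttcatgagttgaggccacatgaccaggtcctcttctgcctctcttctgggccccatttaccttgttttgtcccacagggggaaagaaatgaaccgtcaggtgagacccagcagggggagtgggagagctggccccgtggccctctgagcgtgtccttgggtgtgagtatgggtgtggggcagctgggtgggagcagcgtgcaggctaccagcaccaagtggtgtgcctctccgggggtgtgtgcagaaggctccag
The Areg window held a cyclic AMP response element that began at position -61 from the start site, a GC box at -52 that follows it after 1 base, a TATA box at -31 and a second GC box, on the other strand, at 38. The Epgn window held a TATA box at -86 from its RefSeq start site and none of the other motifs. The gene start given below for Epgn (91027464) lies inside this window, upstream of the RefSeq site and nearer to the TATA box. For Areg and Btc the 2 start sites are the same. None of the 4 motifs was found in the Btc window. Of 32851 promoter windows of the same length, 1.79% held the cyclic AMP response element, 7.81% the AP-1 motif, 13.6% the TATA box and 35.7% the GC box. The GC content was 47.3% in the Epgn window, 59.3% in that of Areg and 60.3% in that of Btc.

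Depth was estimated from the spacing of the low FPKM values, at 28300000 to 33900000 fragments per line. The labelled cell type was checked by marker genes. All 10 epithelial markers (Epcam, Cdh1, Krt5, Krt14, Krt8, Krt18, Trp63, Tjp1, Cldn4 and Dsp) reached 1 FPKM in at least 1 line, and their summed level was 3266 to 3777 FPKM. The basal keratin Krt5 separated the mice, at 499 and 275 FPKM in AOC3 and AOC3-LN against 4.99 and 17.0 FPKM in AOC11 and AOC11-LN. The list as a whole had no common direction. Both AOC3 lines lay above both AOC11 lines for 4 of the 10 epithelial markers and below them for 3. Of all entries that passed the filter, 26.3% lay above and 26.7% below. Of 10 fibroblast markers only Postn reached 1 FPKM, in AOC11-LN, and the list summed to 0.305 to 4.76 FPKM. Of 6 macrophage markers Cd68 and Csf1r did, the list summed to 10.2 to 27.0 FPKM, and Adgre1 was at 0 in all 4 lines. None of 5 T cell and 5 endothelial markers reached it. Of 6 melanocyte and neuron markers, listed because these cells use Nrg1 and Erbb3, Mbp and Mitf did, Sox10 was at most 0.0120 FPKM and Tubb3 was not analysed here.

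Among the receptors, Egfr, Erbb2 and Erbb3 were all present in every line at 5.64 to 19.0 FPKM, and Erbb4, the remaining receptor of the family, was listed at 0 in all 4. The main difference was a lower Egfr level in AOC11-LN. Egfr, the receptor of the EGF-type ligands (chromosome 11, 16752203 to 16918158, plus strand, mm10), stood at 15.5 FPKM in AOC3, 11.3 FPKM in AOC3-LN, 16.6 FPKM in AOC11 and 5.64 FPKM in AOC11-LN. The lines of the mice overlapped, and AOC11-LN lay below the other 3 lines. The primary lines were nearly level, with AOC3 minus AOC11 at -0.03 on the scale used for all differences here, log2(FPKM + 1) after quantile normalization. AOC11-LN minus AOC11 was -1.43, past the threshold of 1 (a 2-fold difference) at which a pair of libraries was set apart, and AOC3-LN minus AOC3 was -0.35. The AOC3 lines minus the AOC11 lines came to 0.51 (SE 0.50), with an adjusted p of 0.613 by limma with Benjamini-Hochberg adjustment over all 14165 entries. Without AOC11-LN the sign turned, to -0.21.

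Erbb2, the ligandless partner receptor (chromosome 11, 98412470 to 98437716, plus strand), was at 12.4 FPKM in AOC3, 12.3 FPKM in AOC3-LN, 15.5 FPKM in AOC11 and 19.0 FPKM in AOC11-LN. Both AOC3 lines lay below both AOC11 lines, by -0.36 (SE 0.21, limma adjusted p 0.414), and within the mice the lymph node line differed by 0.08 and 0.30. The neighbouring gene Mien1, read from the opposite strand, overlaps Erbb2 and was at 33.3 to 49.6 FPKM, and it is not stated whether counting used the strand. Erbb3, the neuregulin receptor (chromosome 10, 128567523 to 128589652, minus strand), was at 12.6 FPKM in AOC3, 11.6 FPKM in AOC3-LN, 12.6 FPKM in AOC11 and 15.2 FPKM in AOC11-LN. The groups overlapped and the mice differed by -0.11 (SE 0.20, limma adjusted p 0.781), which became 0.011 without AOC11-LN.

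The receptor levels summed to 40.6, 35.2, 44.7 and 39.8 FPKM in AOC3, AOC3-LN, AOC11 and AOC11-LN. Egfr made up 38.3%, 32.2% and 37.1% of that sum in the first 3 lines and 14.2% in AOC11-LN. Erbb2 was the largest component there, at 47.6%, followed by Erbb3 at 38.2%. The ratio of Egfr to Erbb2 was 1.25 in AOC3 and 0.920 in AOC3-LN, and it was 1.07 in AOC11 and 0.297 in AOC11-LN. These are shares of transcript, and receptor protein was not analysed here.

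**Figure D1:**
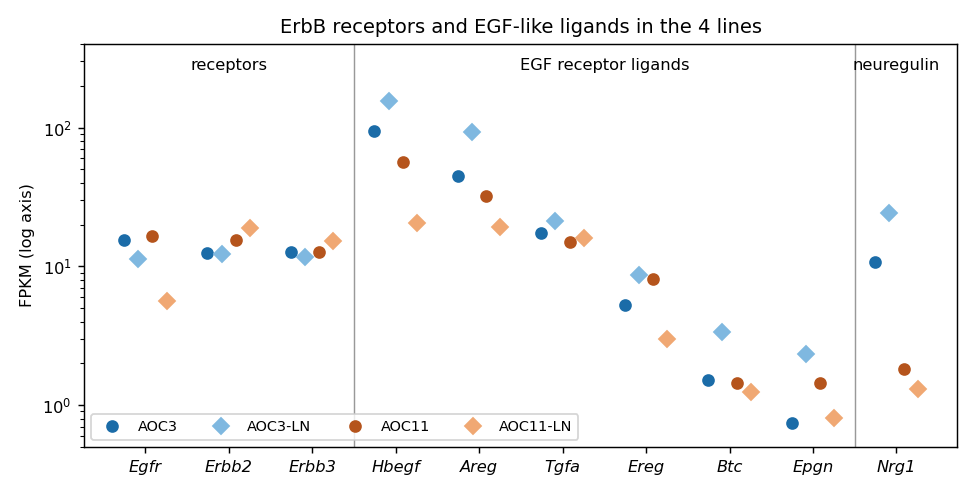
FPKM (log axis) of the 3 receptors and 7 ligands, 1 point per line and no error bars because each line was 1 library. The receptors lie between 11.3 and 19.0 FPKM except for Egfr in AOC11-LN (5.64 FPKM). Hbegf spans 20.4 to 156 FPKM and Nrg1 1.30 to 24.1 FPKM, with both AOC3 lines above both AOC11 lines.

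Among the ligands, Hbegf and Areg were the most abundant ligands in every line, and they and Nrg1 were more than 2-fold higher in the AOC3 lines than in the AOC11 lines. Heparin-binding EGF, encoded by Hbegf on chromosome 18, binds EGFR and ErbB4. Its transcript was at 94.8 FPKM in AOC3, 156 FPKM in AOC3-LN, 56.5 FPKM in AOC11 and 20.4 FPKM in AOC11-LN. AOC3-LN was highest, AOC11-LN lowest, and the mice did not overlap. In AOC3-LN it ranked above 95.5% of the entries that passed the filter and in AOC11-LN above 65.7%. The AOC3 lines exceeded the AOC11 lines by 1.86 (SE 0.52, limma adjusted p 0.184).

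Amphiregulin, encoded by the single-transcript gene Areg (chromosome 5, 91139599 to 91148432, plus strand), binds EGFR only. Areg was at 44.6 FPKM in AOC3, 93.4 FPKM in AOC3-LN, 32.1 FPKM in AOC11 and 19.2 FPKM in AOC11-LN. The order of the lines was that of Hbegf and the mice again did not overlap. The depth estimate put 657 to 2797 fragments behind these values. The difference between the mice was 1.40 (SE 0.43, limma adjusted p 0.204), and it came to 0.88 without AOC3-LN, below the threshold of 1.

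Tgfa, which encodes transforming growth factor alpha (chromosome 6, 86195223 to 86275719, plus strand), was the steadiest of the ligands. It was at 17.4 FPKM in AOC3, 21.2 FPKM in AOC3-LN, 15.01 FPKM in AOC11 and 16.01 FPKM in AOC11-LN. Both AOC3 lines were above both AOC11 lines, but by 0.36 only (SE 0.21, limma adjusted p 0.412).

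Epiregulin, which binds EGFR and ErbB4, comes from Ereg (chromosome 5, 91074622 to 91093646, plus strand). Ereg was at 5.27 FPKM in AOC3, 8.64 FPKM in AOC3-LN, 8.14 FPKM in AOC11 and 2.98 FPKM in AOC11-LN. The groups overlapped, with AOC11 above AOC3 and AOC11-LN lowest of the 4, and the difference between the mice was 0.49 (SE 0.52, limma adjusted p 0.639), or -0.17 without AOC11-LN. The antisense gene Gm19610 overlaps the start of Ereg and was at 2.30 to 3.98 FPKM, so the Ereg values are uncertain to the extent that reads were assigned without strand.

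Betacellulin and epigen were the scarcest ligands among the 10 genes. Btc, which encodes betacellulin (chromosome 5, 91357261 to 91402994, minus strand), was at 1.52 FPKM in AOC3, 3.35 FPKM in AOC3-LN, 1.44 FPKM in AOC11 and 1.25 FPKM in AOC11-LN. Epgn, which encodes epigen (chromosome 5, 91027464 to 91035215, plus strand), was at 0.743 FPKM in AOC3, 2.33 FPKM in AOC3-LN, 1.44 FPKM in AOC11 and 0.808 FPKM in AOC11-LN. AOC3-LN was highest for both genes, and the mice overlapped for both. They differed by 0.57 (SE 0.41, limma adjusted p 0.492) for Btc and by 0.25 (SE 0.48, limma adjusted p 0.795) for Epgn, and the value for Epgn turned to -0.29 without AOC3-LN and to -0.09 without AOC11-LN. Few fragments lay behind Epgn, 40 in AOC3 and 106 in AOC3-LN if all came from its longest transcript.

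Neuregulin 1 is the ErbB3 and ErbB4 ligand, and Nrg1 (chromosome 8, 31814551 to 32884029, minus strand) was the member that differed most between the mice. It was at 10.7 FPKM in AOC3, 24.1 FPKM in AOC3-LN, 1.84 FPKM in AOC11 and 1.30 FPKM in AOC11-LN. Both AOC3 lines were far above both AOC11 lines. The difference was 2.82 (SE 0.46), with an unadjusted p of 0.00174 and an adjusted p of 0.0991 by limma, which missed the threshold of 0.05. Over the alternative settings that adjusted p ran from 0.0415, when only protein-coding genes were tested, to 0.546. The gene has 18 annotated transcripts of 285 to 5415 bases, and the table does not separate the isoforms. Krt5 moved with Nrg1 between the mice, at the values given above, and the macrophage marker Csf1r the other way, at 0.995 and 0.435 FPKM in the AOC3 lines against 20.8 and 6.01 FPKM in the AOC11 lines. Cd68, the other macrophage marker that reached 1 FPKM, was more than 2-fold higher in the AOC3 lines, as Nrg1 was. The part of any of these in the result was not tested.

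The other family members were read alongside. Nrg2, a second neuregulin, was at 3.09 FPKM in AOC3, 5.09 FPKM in AOC3-LN, 2.20 FPKM in AOC11 and 0.730 FPKM in AOC11-LN. The mice did not overlap and differed by 1.14 (SE 0.48, limma adjusted p 0.293). Nrg4 was at 0.468 to 1.10 FPKM and differed by 0.38 (SE 0.27, limma adjusted p 0.479). Egf, at 0.219 to 0.590 FPKM, and Nrg3, at 0.00643 FPKM or less, did not pass the filter.

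Of the 10 members, 3 (Nrg1, Hbegf and Areg) were past the 2-fold threshold with higher levels in the AOC3 lines, where 5.1% of all entries were. None was past it with higher levels in the AOC11 lines, where 6% of all entries were. Both AOC3 lines lay above both AOC11 lines for 4 members (Nrg1, Hbegf, Areg and Tgfa), against 26.3% of all entries, and below them for 1 (Erbb2), against 26.7%. The 7 ligands had a difference above 0, as 50.8% of all entries did, with a median of 0.57, though Ereg and Epgn were below 0 without AOC11-LN and Epgn also without AOC3-LN. The median of the 3 receptors was -0.11 and that of all entries 0.01. limma called 29 entries, 0.205% of those tested, and 0 of the 10 members, 3 of which (Nrg1, Hbegf and Areg) had an unadjusted p under 0.05, as did 2643 entries in all.

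Within the primary lines, Nrg1 alone of the 10 members was more than 2-fold higher in AOC3 than in AOC11, by 1.95, where 6.25% of entries were. Within the lymph node lines 7 members were more than 2-fold higher in AOC3-LN than in AOC11-LN, where 7.58% of entries were. They were Nrg1 (3.69), Hbegf (2.92), Areg (2.28), Ereg (1.5), Btc (1.25), Epgn (1.13) and Egfr (1.05). These pairs are parts of the same comparison of mice, with 1 library on each side and no test.

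Summed over 11 EGF-like ligands, the 7 above with Egf, Nrg2, Nrg3 and Nrg4, ligand transcript came to 179.8 FPKM in AOC3, 316 FPKM in AOC3-LN, 119 FPKM in AOC11 and 64.0 FPKM in AOC11-LN. Set against the receptor sum, the ratio was 4.43 in AOC3 and 8.96 in AOC3-LN for mouse 3, and 2.67 in AOC11 and 1.61 in AOC11-LN for mouse 11. AOC3-LN had the most ligand transcript per receptor transcript and AOC11-LN the least. The make-up was steadier than the sum, since Hbegf, Areg and Tgfa together gave 87.2%, 85.8%, 86.8% and 87.0% of it in AOC3, AOC3-LN, AOC11 and AOC11-LN. Within these, Hbegf took a smaller share in AOC11-LN, 31.9% against 47.3% to 52.7% in the other lines, and Tgfa made up 25.0% there against 6.72% to 12.6%. Neuregulins gave 8.31% and 9.55% of the sum in the AOC3 lines and 3.78% and 4.24% in the AOC11 lines, the AOC3 lines lying above the AOC11 lines without overlap.

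Hbegf led Areg in all 4 lines, but how firmly differed. In AOC3-LN the 95% exact Poisson intervals from the estimated fragments were 153 to 159 FPKM for Hbegf and 90.0 to 97.0 FPKM for Areg. In AOC11-LN they were 19.5 to 21.3 FPKM and 17.8 to 20.8 FPKM, and Erbb2 at 18.3 to 19.7 FPKM lay among them, so their order was not resolved there. In AOC3 the intervals of Erbb2 (11.9 to 13.0 FPKM) and Erbb3 (12.1 to 13.1 FPKM) overlapped as well. The intervals cover counting error only and take all fragments of a gene from its longest transcript.

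**Figure D2:**
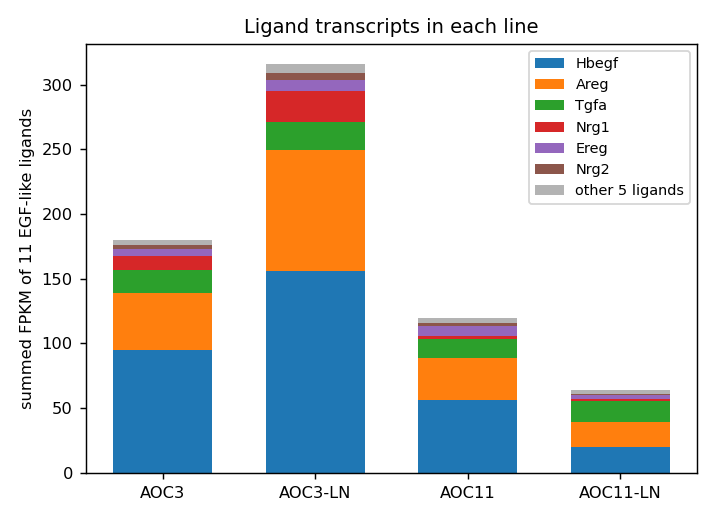
Summed FPKM of the EGF-like ligands in each line (linear axis from 0), stacked by ligand, 1 library per line. The sum is highest in AOC3-LN (316 FPKM) and lowest in AOC11-LN (64.0 FPKM), and Hbegf and Areg fill most of every bar.

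The lymph node lines were next set against the primary line of the same mouse, with opposite results for most ligands. In mouse 3 all 7 ligands were higher in the lymph node line, as were 53.0% of all entries, with a median difference of 0.95 against 0.02 over all entries. Nrg1 (1.17), Epgn (1.08) and Areg (1.05) were past the threshold, 3 of the 10 members against 2.11% of all entries, and 0 members were past it in the other direction, against 3.42%. Epgn came to 0.93 without quantile normalization, below the threshold. In the same pair Btc differed by 0.95, Ereg by 0.72, Hbegf by 0.69 and Tgfa by 0.32. In mouse 11, 6 of the 7 ligands were lower in the lymph node line, as were 51.3% of all entries, with a median of -0.68 against -0.02 over all entries. Hbegf (-1.42) and Ereg (-1.32) were past the threshold, as was the receptor Egfr (-1.43), 3 of the 10 members against 3.14% of all entries. None was past it in the higher direction, against 4.97%.

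Areg (-0.71), Epgn (-0.68), Nrg1 (-0.57) and Btc (-0.40) were lower in AOC11-LN by less than 2-fold, and Tgfa (0.10) was not lower. In all, 6 of the 10 members were higher in AOC3-LN than AOC3 and lower in AOC11-LN than AOC11, by any amount, against 28.6% of all entries. They were Areg, Ereg, Hbegf, Epgn, Btc and Nrg1. The counting intervals of Btc in AOC11 (1.24 to 1.66 FPKM) and AOC11-LN (1.06 to 1.46 FPKM) overlapped, so its decrease was not detectable at this depth. Taking all fragments from the longest transcript, those of Epgn did not overlap in either mouse. They were 0.531 to 1.01 FPKM in AOC3 against 1.91 to 2.82 FPKM in AOC3-LN. In mouse 11 they were 1.14 to 1.80 FPKM in AOC11 against 0.582 to 1.09 FPKM in AOC11-LN. From the shortest transcript Epgn would rest on 30 fragments in AOC11 and 17 in AOC11-LN. The intervals would then be wider, and whether they would still be apart was not tested. Nrg2 had the same pattern, at 0.72 in mouse 3 and -1.09 in mouse 11.

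With mouse as a block, limma found no common difference between lymph node and primary lines in the 10 members. The adjusted p was 0.999 for every one, and 0 members were called, where 2 of 14165 entries (0.0141%) were. No member had an unadjusted p under 0.05 either, as 405 entries did. Egfr came nearest, lower by -0.89 in the lymph node lines (SE 0.35, unadjusted p 0.0522 by limma), and it was lower in both.

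**Figure D3:**
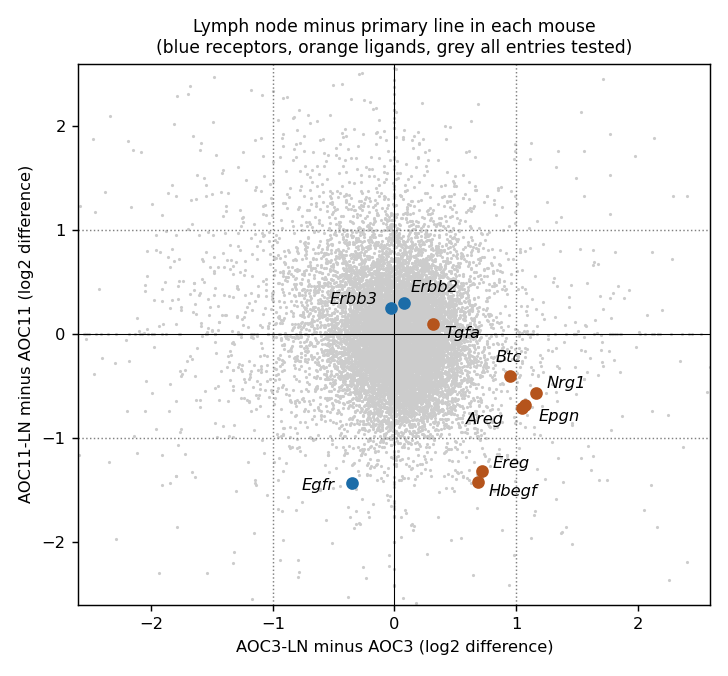
Log2 difference of the lymph node minus the primary line in mouse 3 (horizontal) and mouse 11 (vertical), 1 point per entry tested, with receptors in blue, ligands in orange and dotted lines at 1 and -1. Axes stop at 2.6 in either direction, which leaves out 257 entries. Areg, Ereg, Hbegf, Epgn, Btc and Nrg1 lie at the lower right, and Egfr lies lowest of the 10 members, at -1.43.

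The cluster on chromosome 5 holds Epgn, Ereg and Areg, all on the plus strand, and Btc 263 kb beyond the Areg start site on the minus strand. The 4 ligand genes were each higher in AOC3-LN (0.72 to 1.08) and lower in AOC11-LN (-1.32 to -0.40). Of the next protein-coding genes on either side that passed the filter, Mthfd2l, which starts at -208 kb from Areg and encodes a mitochondrial folate enzyme, differed by 0.15 in mouse 3 and by -0.50 in mouse 11, the same signs as the cluster and, in mouse 11, within its range. Parm1, 378 kb beyond Areg, differed by -0.04 and 0.14. Further out, the neutrophil-attracting chemokine genes Cxcl1 (-1.33 and -2.20) and Cxcl5 (-1.94 and -2.30) were lower in both lymph node lines, as was Cxcl3 (-0.93 and -3.70). The chemokine gene Ppbp (3.22 and -1.98) had the same opposite signs as the ligand cluster. Cxcl2 (0.12 and -0.57) had them only after quantile normalization, since before it the gene was level in mouse 3, at 0.815 FPKM in AOC3 and 0.814 FPKM in AOC3-LN. Hbegf and Nrg1, on chromosomes 18 and 8, had the same opposite signs as the cluster.

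**Figure D4:**
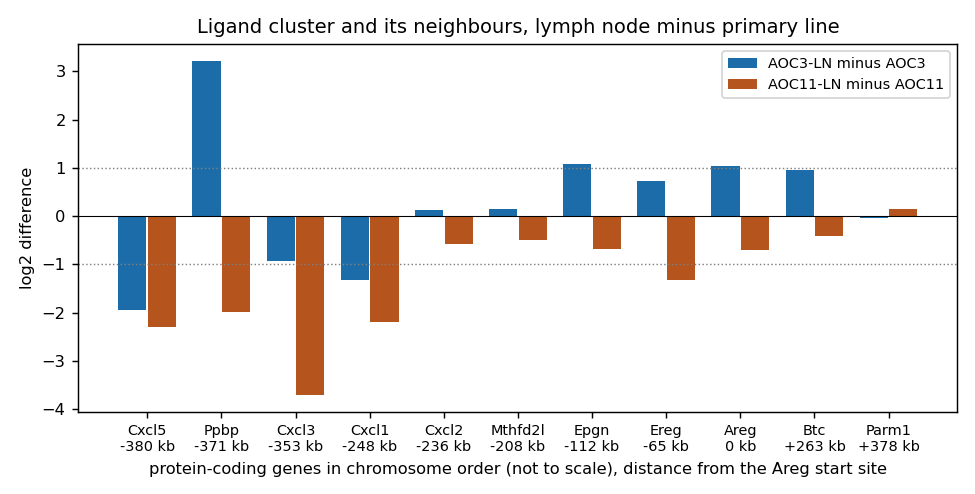
Log2 difference of the lymph node minus the primary line for protein-coding genes around the ligand cluster that passed the filter, in chromosome order with the distance of each start site from that of Areg, blue for mouse 3 and orange for mouse 11. Epgn, Ereg, Areg and Btc have blue bars above 0 (0.72 to 1.08) and orange bars below 0 (-1.32 to -0.40), and Mthfd2l and Parm1 on either side lie between -0.50 and 0.15.

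The pathway was read more widely by 7 lists, for which counts and medians are given without a set test. limma called 0 genes of any list. Of the 84 listed genes tested, 27 had an unadjusted p under 0.05 by limma (32.1%, against 18.7% of all entries). The 84 include the 10 members, and the 27 include the 3 members named above (Nrg1, Hbegf and Areg), so these are counted again. The lists are read against the 5.1% and 6% of all entries past the threshold in the AOC3 and AOC11 lines, the 50.8% above 0 and the median of 0.01 given above. Within mouse 3, 2.11% of all entries were past the threshold higher in AOC3-LN and 3.42% lower. Within mouse 11, 4.97% were higher in AOC11-LN and 3.14% lower. Of 12 genes for shedding and trafficking of ligand precursors 11 passed the filter. None was more than 2-fold higher in the AOC3 lines and 1 was in the AOC11 lines, and their median was -0.21. The 1 was Adam8, a metalloprotease of leukocytes and some tumors, at 1.84 FPKM in AOC3, 0.755 FPKM in AOC3-LN, 16.2 FPKM in AOC11 and 18.2 FPKM in AOC11-LN. It differed by -2.97 (SE 0.29, limma adjusted p 0.0552), opposite in sign to the ligands. The metalloprotease Adam15 followed at -0.85 and the sheddase cofactor Frmd8 at -0.65. Adam17, the main sheddase of Areg, Hbegf and Tgfa, was at 15.9 to 19.3 FPKM in all 4 lines and differed by 0.04 (SE 0.20, limma adjusted p 0.919). Adam12 was lower in AOC11-LN than in AOC11, by -1.12.

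All 15 genes for inhibition and turnover of the receptors passed, with a median of 0.16 and 13 above 0. Only Ubash3b, which encodes a phosphatase that binds the ubiquitin ligase Cbl, was past the threshold between the mice, at 6.15 and 5.57 FPKM in AOC3 and AOC3-LN against 0.621 and 1.67 FPKM in AOC11 and AOC11-LN (1.78, SE 0.27, limma adjusted p 0.0943). Errfi1, whose product Mig6 is an induced inhibitor of EGFR, was at 78.4 FPKM in AOC3, 132 FPKM in AOC3-LN, 57.4 FPKM in AOC11 and 52.4 FPKM in AOC11-LN. It was highest in AOC3-LN, as Hbegf and Areg were, and differed between the mice by 0.94 (SE 0.27, limma adjusted p 0.186). Socs5 followed at 0.79. Within the mice, the adaptor gene Sh3kbp1 was higher in AOC3-LN by 1.61, and Lrig3 (-1.04) and Socs4 (-1.02) were lower in AOC11-LN.

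Of 17 adaptor and Ras-ERK genes, which carry the signal from receptor to ERK, all passed, the median was -0.07, and 7 were above 0. Both AOC3 lines lay above both AOC11 lines for 6 of them, against 26.3% of all entries, and below for 7, against 26.7%. The docking adaptor gene Gab1 was past the threshold with higher levels in the AOC11 lines, at 1.96, 1.33, 6.46 and 5.54 FPKM in AOC3, AOC3-LN, AOC11 and AOC11-LN (-1.34, SE 0.25, limma adjusted p 0.118). The scaffold gene Ksr1 came next at 0.97, with 1.67 between AOC3-LN and AOC3, and Mapk3, which encodes ERK1, at -0.83. Of 12 genes on the PI3K, PLC and STAT list, 0 were past the threshold in either mouse or between mice, the median was -0.22, and the extremes were Plcg1 (-0.89), Pdk1 (0.69) and Akt2 (-0.50). Pdk1 is the symbol of a pyruvate dehydrogenase kinase, which has no place in this relay, and without it the median of the other 11 was -0.23.

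Of 17 feedback and early genes that EGF is known to induce, all passed, 3 were past the threshold with higher levels in the AOC3 lines, 14 were above 0 and 3 were not, and the median was 0.63. Dusp5, a phosphatase of nuclear ERK, was at 30.7 FPKM in AOC3, 64.2 FPKM in AOC3-LN, 13.0 FPKM in AOC11 and 11.1 FPKM in AOC11-LN (1.86, SE 0.37, limma adjusted p 0.124). Fosl1, which encodes the AP-1 subunit Fra-1, was at 39.0 FPKM in AOC3, 84.1 FPKM in AOC3-LN, 15.98 FPKM in AOC11 and 19.3 FPKM in AOC11-LN (1.70, SE 0.39, limma adjusted p 0.143). For both the mice did not overlap and AOC3-LN was highest. The third was Fos, the founding AP-1 gene, at 1.01. In AOC3-LN against AOC3, Egr1 (1.34), Fosl1 (1.09), Dusp5 (1.02) and Spry4 (1.003) were past the threshold, where 2.11% of all entries were. The median of the list was 0.20, against 0.02 over all entries. In AOC11-LN against AOC11 the median was -0.22, against -0.02 over all entries. Ier3 alone was past the threshold (-1.11), where 3.14% of all entries were.

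**Figure D5:**
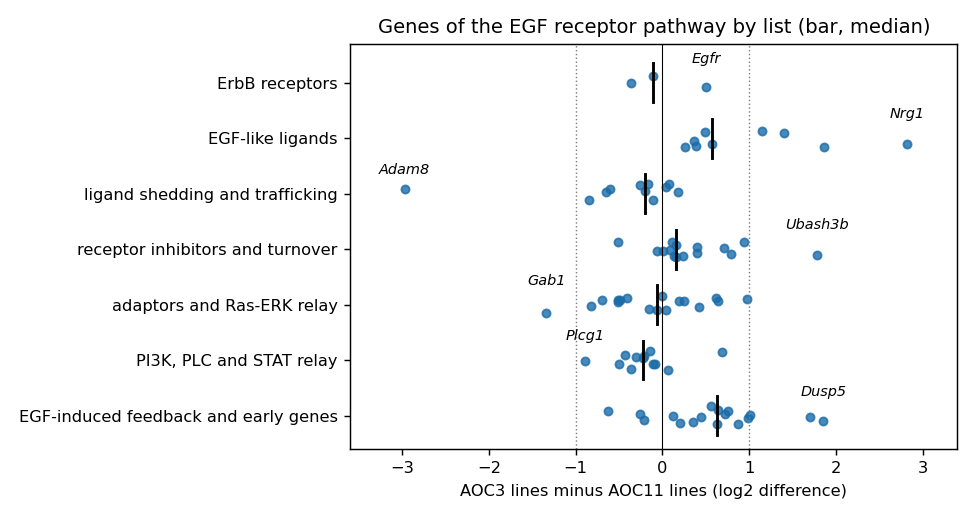
Log2 difference of the AOC3 lines minus the AOC11 lines for every gene of 7 pathway lists that passed the filter, 1 point per gene, vertical bars at list medians and dotted lines at 1 and -1, with the gene farthest from 0 named. The medians of the EGF-like ligands (0.57) and of the EGF-induced genes (0.63) lie to the right of 0, and those of shedding (-0.21) and of the PI3K list (-0.22) to the left.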

How the data were processed

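The authors deposited 1 table of FPKM values for 4 lines. Per the study's methods, stranded mRNA libraries were read as 2 × 100 base pairs, trimmed with Trim Galore, mapped to mm10 and quantified with TopHat2/Cufflinks on GENCODE M21 at default settings, their versions not given in the sources used here. The authors' log2 and quantile steps are not in the table and were applied here to log2(FPKM + 1). The filter kept 14165 entries (14155 identifiers) that reached 1 FPKM in some line, and every column was mapped to a line. FPKM values are not counts, so no count model was used. limma 3.58.1 (R 4.3.3, trended variance) compared the AOC3 with the AOC11 lines, and lymph node with primary lines with mouse as the block, Benjamini-Hochberg adjusted over all entries. Each lymph node line came from the mouse of its primary line, which sets the pairing. Pairs of libraries were called past a log2 difference of 1, with no test. The code of the limma fits and of the depth estimate was tried on simulated data. For limma the 4 simulated lines had independent noise, unlike lines that share a mouse. That trial therefore does not show how reliable limma's calls are here. Depth was estimated from 9528 genes with 1 transcript over 800 bases: of values worth at most 10 fragments, 70.8% to 74.1% lay within 0.1 of a whole number, so fragments are estimates and were not tested. The FPKM of a gene with several transcripts depends on how Cufflinks split its fragments.

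The 10 genes and all lists were chosen with earlier results of these data known. Of each pathway list, the text names the 3 genes that differed most between the mice and any past the threshold within a mouse, and of each marker list the genes at 1 FPKM or more. Adam17, Mthfd2l, Parm1, the chemokine genes and the low markers were named beside them after their values were seen. Alternatives were a pseudocount of 0.1, no quantile normalization, median scaling, no filter, a filter of 5 FPKM and protein-coding genes only. Others were a 1.5-fold threshold, the site as a term, no block for mouse and leaving out each line.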

Additional observations from a re-analysis of the deposited data

Results flagged for a closer look

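The lymph node line differed from the primary line in opposite directions in the 2 mice for 6 of the 10 members, with 1 line on each side, and that the shifts differ was not tested. The shift in mouse 3 minus the shift in mouse 11 was 2.11 for Hbegf (0.69 and -1.42), 2.03 for Ereg (0.72 and -1.32), 1.76 for Areg (1.05 and -0.71), 1.76 for Epgn (1.08 and -0.68), 1.73 for Nrg1 (1.17 and -0.57) and 1.36 for Btc (0.95 and -0.40), all as log2 differences. For Btc the decrease in mouse 11 was within counting error. Of all entries tested, 28.6% had the same pair of signs.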

How the results depend on the processing

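Of 292 values recomputed under the alternatives for single genes, 279 kept their direction and their side of the threshold and 6 changed sign. Many of the 279 were fixed in advance. Changing the filter, testing protein-coding genes only, adding the site term or dropping the mouse block cannot move a log2 difference here. All 6 sign changes came from the other alternatives, so the share of unchanged values overstates stability. With 1 line left out, the difference between the mice ran from -0.21 to 1.22 for Egfr, -0.17 to 1.14 for Ereg, -0.24 to 0.011 for Erbb3 and -0.29 to 0.79 for Epgn, which changed sign without AOC11-LN (Epgn to -0.09) and, for Epgn, also without AOC3-LN. Erbb2 in AOC3-LN against AOC3 changed to -0.010 without quantile normalization. As given in the main text, with all lines kept and quantile normalization, none of these differences was past the threshold. Between the mice, the 29 entries called by limma became 0 without a filter, 50 with a filter of 5 FPKM and 256 among protein-coding genes only, where 1 member, Nrg1, was called (adjusted p 0.0415), and 0 when any 1 line was left out. The members past the threshold between the mice numbered 2 to 5 when 1 line was left out, against 3. Without AOC11, Egfr (1.22) and Ereg (1.14) passed it, and without AOC3, Btc (1.05) did. At 1.5-fold, 6 members were past the threshold in AOC3-LN and 5 in AOC11-LN, against 3 each. Between lymph node and primary lines, the 2 entries called became 0 without a filter and 0 among protein-coding genes. Without mouse as the block they stayed 2, with 0 members. With a pseudocount of 0.1, Epgn in AOC11-LN (-1.23) and Btc in AOC3-LN (1.32) passed the threshold. The cause of these changes was not tested. A line left alone in its group is assumed to vary like the others. Epgn and Btc rest on few fragments, and the shift of a pair of libraries cannot be told apart from the spread between cultures.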
